A study of Mus musculus with 36 samples.

Results

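The 9 genes described here encode the molecules by which blood leukocytes stop on a vessel wall. They are the selectins Selp and Sele, the selectin ligand Selplg, the endothelial ligands Icam1 and Vcam1, and the leukocyte integrin chains Itgal, Itgam, Itgax and Itgb2. They were chosen by symbol, and all 9 have a row in both count tables, among 18116 rows used from the females and 18291 from the males. All 9 passed the filter on low counts in every comparison.

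RNA of the lung was sequenced from 36 wild-type C57BL/6 mice, 8 weeks old at the start by the methods of the study, in 6 treatment groups that each held 3 males and 3 females. The groups received saline (control), BP crude oil of the MC252 source, the dispersant Corexit 9500, the dispersant Corexit 9527, 9500+oil or 9527+oil, at 0.1 WAF (the strength of an accommodated fraction, as the labels give it) on days 0, 7 and 13. All mice were killed on day 14. The labels give intratracheal instillation, the methods oropharyngeal aspiration. Males and females were treated separately and counted into separate tables, so that sex cannot be told apart from the separate treatment and the table.

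Leukocytes leave the blood in steps. They are first slowed by rolling, when selectins on activated endothelium or platelets bind sugars carried by PSGL-1, the product of Selplg. Integrins of the beta2 family, each an alpha chain (Itgal, Itgam or Itgax) paired with the common Itgb2 chain, then hold the cell to ICAM-1, while VCAM-1 is held by the integrin that contains the Itga4 chain. In the lung the beta2 integrins also mark resident cells, with Itgax (CD11c) high on alveolar macrophages and dendritic cells and Itgam (CD11b) high on neutrophils and monocytes.

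The genes lie on 6 mouse chromosomes (GRCm38). Selp (chromosome 1, 164115264 to 164150026) and Sele (chromosome 1, 164048234 to 164057677) are neighbours. Itgal (chromosome 7, 127296260 to 127335138) is followed further along the same chromosome by Itgam (128062640 to 128118491) and Itgax (128129547 to 128150657). Selplg lies on chromosome 5 (113818536 to 113832644), Icam1 on chromosome 9 (21015985 to 21028817), Vcam1 on chromosome 3 (116109949 to 116129688) and Itgb2 on chromosome 10 (77530252 to 77565708). Of the 31-base words in its transcripts, Itgam shares 68.1% with other annotated genes, nearly all with the overlapping gene model Gm49368, which was not analysed here. Itgax shares 10.7% with Itgad, and the other 7 share at most 3.5%, so reads of Itgam and Itgax could be split between gene models.

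Start-site windows, from 250 bases before to 50 after the annotated start, were held for 5 of the 9 genes in the RefSeq table (GRCm38.p6). Those of Itgam and Itgax are shown because the results below turn on these integrin chains. Those of Icam1 and Sele, an integrin ligand and a selectin, are set beside them. Capitals mark matches, on either strand, to a PU.1 core (GAGGAA), an AP-1 site (TGANTCA) or a GAS-like interferon element (TTCNNNGAA).
Itgam, chr7:128062390-128062689, plus strand: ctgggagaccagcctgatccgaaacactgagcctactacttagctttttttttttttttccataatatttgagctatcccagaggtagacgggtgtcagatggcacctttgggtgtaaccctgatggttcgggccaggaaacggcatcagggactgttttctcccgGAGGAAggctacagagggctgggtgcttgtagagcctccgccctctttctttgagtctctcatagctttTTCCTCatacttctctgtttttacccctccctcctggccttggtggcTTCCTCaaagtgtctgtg
Itgax, chr7:128129300-128129599, plus strand: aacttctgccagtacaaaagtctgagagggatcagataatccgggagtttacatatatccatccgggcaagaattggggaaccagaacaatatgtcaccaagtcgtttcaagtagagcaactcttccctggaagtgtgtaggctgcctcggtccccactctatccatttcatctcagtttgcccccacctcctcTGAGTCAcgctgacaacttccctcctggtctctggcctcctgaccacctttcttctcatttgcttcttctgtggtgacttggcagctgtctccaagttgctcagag
Sele, chr1:164047984-164048283, plus strand: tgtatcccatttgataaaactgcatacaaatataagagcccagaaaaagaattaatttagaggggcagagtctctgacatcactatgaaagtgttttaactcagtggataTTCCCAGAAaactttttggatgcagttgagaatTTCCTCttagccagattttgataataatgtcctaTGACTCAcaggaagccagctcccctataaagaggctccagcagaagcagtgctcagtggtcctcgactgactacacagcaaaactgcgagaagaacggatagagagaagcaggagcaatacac
Icam1, chr9:21015690-21015989, plus strand: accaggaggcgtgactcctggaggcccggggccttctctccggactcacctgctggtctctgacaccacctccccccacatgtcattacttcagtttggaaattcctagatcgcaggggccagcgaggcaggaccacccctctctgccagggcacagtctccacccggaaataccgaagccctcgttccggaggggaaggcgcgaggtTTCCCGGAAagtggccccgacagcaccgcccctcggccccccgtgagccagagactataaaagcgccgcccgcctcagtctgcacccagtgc
The Itgam window held 3 PU.1 cores, with their first bases at -84, -15 and 33 from the start. The Itgax window held 1 AP-1 match at -56 and no PU.1 core. In the Sele window a GAS-like match lay at -140, a PU.1 core at -107 and an AP-1 match at -73, and the Icam1 window held 1 GAS-like match at -42. Over 32851 windows of the same table, 28.3% held a PU.1 core, 7.81% an AP-1 match and 8.3% a GAS-like match. No 2 different motifs overlapped in the windows shown, and an AP-1 match, which reads alike on both strands, was counted once. These matches are letters in a window and not measured binding.

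Total counts ran from 17501180 to 30011557 per mouse. In 4 female libraries (saline mouse 3, oil mouse 6, 9527 mouse 11 and 9500+oil mouse 14) 20.67 to 45.09% of the counts fell on mitochondrial genes, against 5.27 to 11.34% in the other 32. Their log2 ratio of GC-rich to GC-poor transcripts was -2.78 to -2.03, against -0.59 to 0.34 in the others. Female tests against saline are therefore given with and without these 4 libraries. The female order of levels and the female correlations are given without them only. Each library is 1 mouse. The p-values set a difference between groups against the spread between mice, which the fit estimates with help from all genes.

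Icam1 was the most abundant of the 9 genes in saline lung and Sele the least. Per kilobase of the longest transcript, the mean of the 3 saline males was 222 CPM (counts scaled to 1000000 a library) for Icam1, 58.6 for Itgb2, 52.3 for Selplg, 25 for Itgal and 22.3 for Itgax. Vcam1 followed at 18.2, Itgam at 12.8, Selp at 1.85 and Sele at 0.47 CPM per kilobase. The ranges of neighbours in this order overlapped for Itgb2 and Selplg and for Itgal and Itgax only. In the 2 saline females with under 20% mitochondrial counts Icam1 was again first, at 159 CPM per kilobase, and Selp (3.41) and Sele (0.7) last, with Selplg and Itgb2 the one pair of neighbours whose ranges overlapped. Sele rested on 20 to 55 counts in a male library and 15 to 100 in a female library, and its SE was the largest of the 9 in each male comparison with saline.

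The endothelial marker list (12 genes, among them Pecam1 and Cdh5) and the neutrophil list (15 genes, among them S100a8 and Csf3r) were both expressed. None of their genes was at 0 in all mice of a table. In bulk RNA, fewer cells of a type and less RNA per cell cannot be told apart.

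Among the male mice, Itgax was the one member called by edgeR for a difference between the 6 groups, and DESeq2 called Itgax and Selplg. The integrin alpha chain CD11c measured 86.9, 89.9 and 93.3 CPM in the saline mice, 152, 127 and 150 in the oil mice and 119, 150 and 129 in the 9527 mice. It measured 108, 118 and 92.4 CPM with 9500, 105, 97.6 and 104 with 9500+oil, and 91, 106 and 105 with 9527+oil. Every oil and every 9527 mouse lay above the other 12 male mice. This split was chosen from these values, and the share of all genes that show it was not counted. A test over all 6 groups (edgeR quasi-likelihood F-test, Benjamini-Hochberg over all genes) gave Itgax an adjusted p of 0.0492, in a table where 0.135% of genes were called. The call was lost in 14 of the 18 fits with 1 mouse left out, where the adjusted p ran from 0.0206 to 0.11, the highest without 9527 mouse 11. At an unadjusted p under 0.05 the same test marked 4 members, Selplg, Itgam, Itgb2 and Itgax, against 10.4% of all genes.

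**Figure D1:**
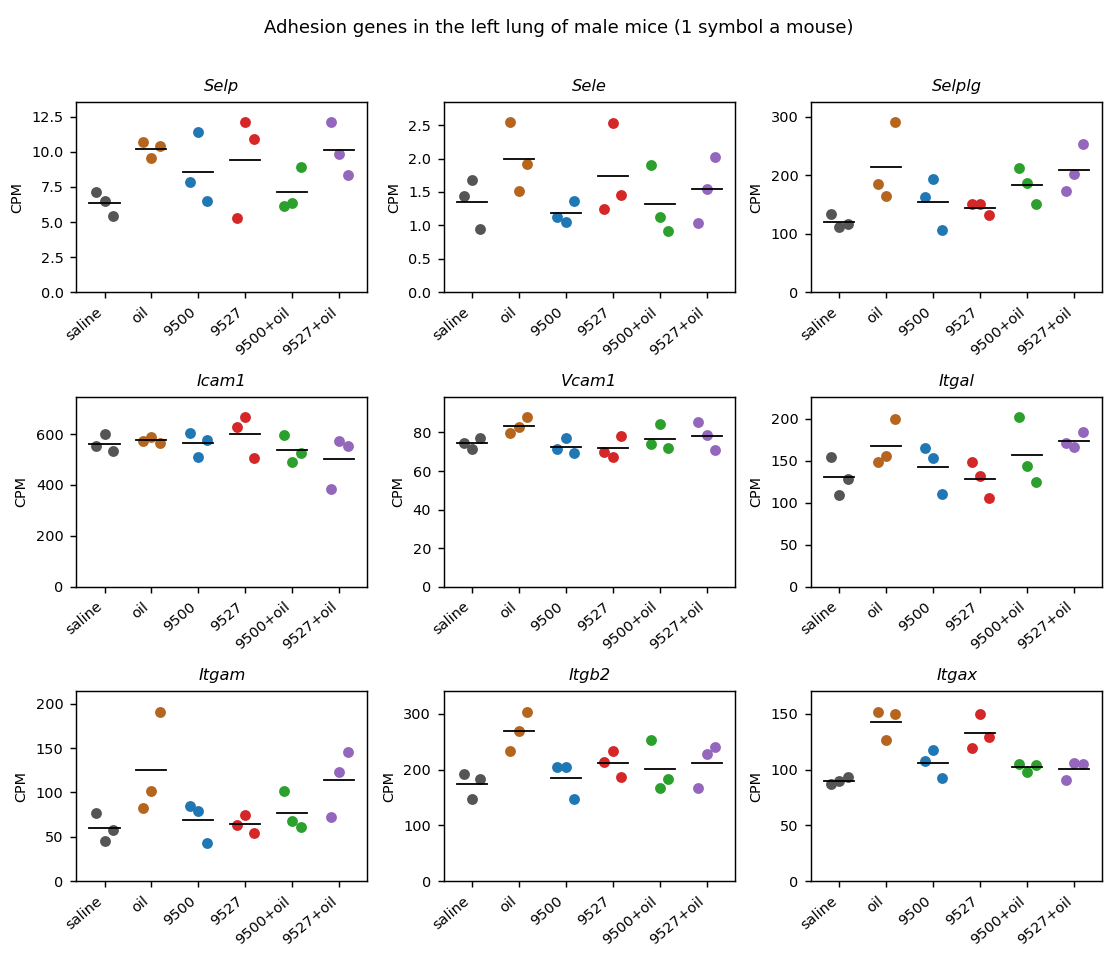
CPM of each of the 9 genes by treatment in male mice, with 1 point a mouse and a bar at the group mean. For Itgax the oil and 9527 mice (119 to 152 CPM) sit above all other mice (86.9 to 118 CPM), a split chosen from these values. Icam1 and Vcam1 overlap between most groups.

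In male mice given oil, the levels of the selectin ligand and of integrin chains were above those of saline mice, but no member passed the adjusted threshold. All 9 log2 fold changes were above 0, with a median of 0.62 against -0.013 over all genes. By adjusted p under 0.05 none of the 9 was called, and 0.00671% of all genes were. At an unadjusted p under 0.05, 6 of 9 members were higher (Selp, Selplg, Itgam, Itgb2, Itgax and Itgal), where 5.75% of all genes were. For 6 of 9 (Selp, Selplg, Vcam1, Itgam, Itgb2 and Itgax) every oil mouse was above every saline mouse, where this held for 7.42% of all genes.

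Among the rolling genes, Selplg, whose product is the shared ligand of the selectins, measured 134, 111 and 117 CPM in the saline and 185, 165 and 290 CPM in the oil males. Oil mouse 6 was the highest, and the groups did not overlap. The log2 fold change was 0.81 (SE 0.20, n = 3 and 3, edgeR adjusted p = 0.319), and 0.54 without oil mouse 6. Selp, the selectin stored in platelets and endothelium, measured 7.11, 6.51 and 5.42 CPM in saline and 10.7, 9.55 and 10.4 CPM in oil males, again without overlap (log2 fold change 0.69, SE 0.16, edgeR adjusted p = 0.319). Sele, the selectin made by endothelium on cytokine stimulation, measured 1.44, 1.68 and 0.95 CPM against 2.54, 1.51 and 1.92 CPM, and these ranges overlapped (log2 fold change 0.55, SE 0.36, edgeR adjusted p = 0.769).

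Of the integrin chains, Itgam had the largest log2 fold change of the 9 genes, and the widest relative spread over the 18 males (coefficient of variation 44%). It measured 77.1, 45.6 and 57.5 CPM in saline and 82.7, 102 and 191 CPM in oil males, with a log2 fold change of 1.06 (SE 0.31, edgeR adjusted p = 0.378). Oil mouse 6 alone stood far above the rest, and without it the log2 fold change was 0.63. The common chain Itgb2 measured 192, 147 and 184 CPM in saline and 234, 269 and 304 CPM in oil males (log2 fold change 0.62, SE 0.13, edgeR adjusted p = 0.273). The values of Itgax, given above, yielded a log2 fold change of 0.66 (SE 0.10, edgeR adjusted p = 0.169), the smallest adjusted p of the 9, and 0.62 to 0.74 with any 1 mouse left out. Itgal, the alpha chain of LFA-1 on most leukocytes, measured 155, 109 and 128 CPM against 148, 156 and 200 CPM, and the groups overlapped (log2 fold change 0.36, SE 0.16, edgeR adjusted p = 0.594).

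Icam1 and Vcam1 were close to saline, and the cells that gave their RNA cannot be told in whole lung. Icam1 measured 553, 601 and 532 CPM in saline and 572, 590 and 563 CPM in oil males, all 3 oil values lying within the saline range, with a log2 fold change of 0.03 (SE 0.09, edgeR adjusted p = 0.953). Vcam1 measured 74.6, 71.3 and 77.2 CPM against 79.5, 82.6 and 88 CPM, which did not overlap but differed by a log2 fold change of only 0.16 (SE 0.09, edgeR adjusted p = 0.704).

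**Figure D2:**
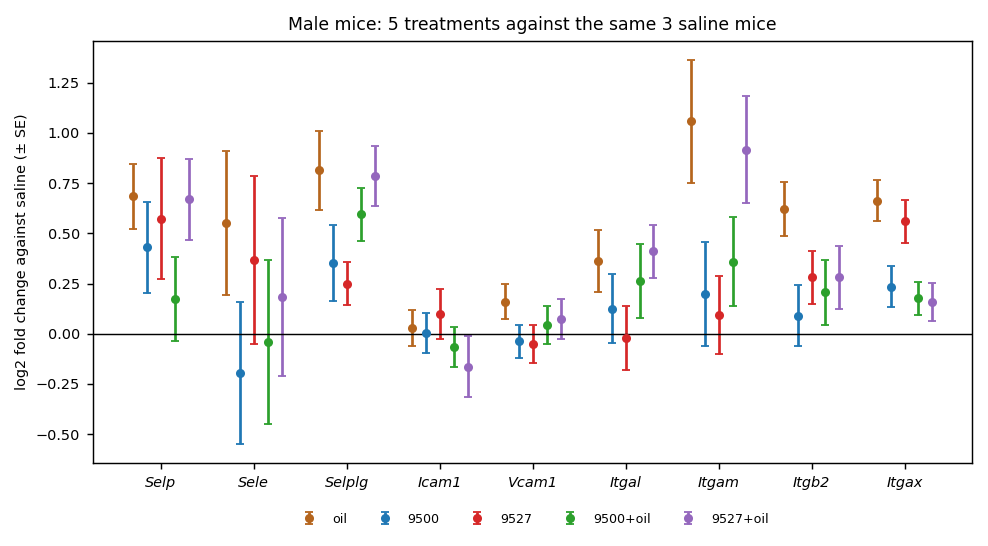
Log2 fold change against saline of the 9 genes in male mice, with bars of 1 SE, for 5 treatments compared with the same 3 saline mice. Selplg, Itgam and Selp are highest with oil and 9527+oil, Itgax with oil and 9527, and Icam1 lies between -0.16 and 0.10.

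With DESeq2 in place of edgeR, 3 members were called in oil against saline males, namely Itgax (adjusted p = 1.62e-05), Itgb2 (0.00451) and Selplg (0.00688). DESeq2 called 1.31% of all genes in that comparison.

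In males given Corexit 9527, Itgax was the one member whose values all lay above saline. The log2 fold change of Itgax was 0.56 (SE 0.11, edgeR adjusted p = 0.0768), and 0.46 to 0.63 with any 1 mouse left out. None of 9 members was called, where 0.114% of genes were. At an unadjusted p under 0.05, 2 members were higher (Selplg and Itgax), against 7.96% of all genes, and 1 of 9 lay wholly above saline, against 10.7%. Itgax was called by DESeq2 (adjusted p = 0.000431, with 3.98% of genes called) and with all 6 groups in one fit (0.0176, with 1.83% called). Itgam measured 63.1, 74.9 and 54.2 CPM with 9527, within the saline range, at a log2 fold change of 0.09 (SE 0.19, edgeR adjusted p = 0.889). Itgb2 measured 214, 234 and 187 CPM (log2 fold change 0.28, SE 0.13, edgeR adjusted p = 0.397).

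With 9527+oil the largest log2 fold changes in males were those of Itgam, Selplg and Selp, and that of Itgax was 0.16 (SE 0.09, edgeR adjusted p = 0.891). No member was called, where 0.00669% of genes were. Selplg measured 172, 202 and 253 CPM (log2 fold change 0.78, SE 0.15, edgeR adjusted p = 0.885), and Itgam 72.3, 123 and 146 CPM (0.92, SE 0.27, 0.885). Selp measured 12.1, 9.85 and 8.37 CPM, and Itgal 171, 166 and 184 CPM. For Selp, Selplg and Itgal every treated mouse was above every saline mouse, 3 of 9 against 5.92% of all genes, while the lowest Itgam mouse (mouse 16) lay within the saline range. At an unadjusted p under 0.05, 4 of 9 were higher (Selp, Selplg, Itgam and Itgal), against 3.54% of genes. Selplg was called without mouse 16 (edgeR adjusted p = 0.037, with 0.357% of genes called) and by DESeq2 (0.00125, with 0.167% of genes called).

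For 9500+oil and 9500 alone most members overlapped with saline. With 9500+oil Selplg measured 212, 186 and 150 CPM in males (log2 fold change 0.59, SE 0.13, edgeR adjusted p = 0.506), and Selplg and Itgax lay wholly above saline, 2 of 9 against 7.86% of genes. None was called (0% of genes), 1 of 9 was higher at an unadjusted p under 0.05 (Selplg) against 5.19% of genes, and DESeq2 called Selplg (adjusted p = 0.0169, with 0.343% of genes called). With 9500 alone no member was called (0.00662% of genes), 1 was higher at an unadjusted p under 0.05 (Itgax) against 4% of genes (log2 fold change 0.23, SE 0.10, edgeR adjusted p = 0.782), and 0 of 9 lay wholly above saline against 6.39% of genes. The 5 comparisons share their saline mice and are not independent of each other.

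Across the 18 male mice Itgam, Selplg, Itgal and Itgb2 had high pairwise correlations. Pearson's r of log2 CPM was 0.91 between Selplg and Itgam, 0.87 between Itgam and Itgal, 0.86 between Itgam and Itgb2, 0.70 between Itgb2 and Itgax and 0.41 between Itgam and Itgax. Icam1 and Vcam1 had an r of -0.60. These values describe mice that share treatments and have no test. In the 14 females with under 20% mitochondrial counts, r was 0.76 between Itgb2 and Itgax, 0.66 between Selplg and Itgal, 0.48 between Selplg and Itgam and between Itgam and Itgal, and 0.38 between Itgam and Itgb2. It was -0.14 between Selplg and Itgb2 and -0.28 between Itgb2 and Itgal, where the males had 0.74 and 0.70, and -0.06 between Icam1 and Vcam1.

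Markers of leukocytes were summed in the same male mice, and no difference of a whole list was tested. The summed level of the 15 neutrophil markers was 343 to 372 CPM in saline and 424, 538 and 1183 CPM in oil mice. In 9527+oil mice it was 292, 1142 and 1506 CPM. Oil mouse 6 and 9527+oil mice 17 and 18 also held the highest Itgam values. The sum was 218 to 468 CPM with 9500 and 328 to 957 CPM with 9500+oil, where Itgam reached at most 84.5 and 102 CPM. In oil against saline 12 of 15 neutrophil markers were higher, 7 of them at an unadjusted p under 0.05, where 47.1% and 5.75% of all genes were, with a median log2 fold change of 0.98. With 9527 the sum was 140 to 323 CPM and 3 of 13 tested markers were higher, against 48.3% of all genes, with a median of -0.37. The 14 markers of monocytes and interstitial macrophages summed to 2983 to 3207 CPM in saline, 3367 to 4834 CPM in oil and 3520 to 3808 CPM in 9527 males, and 12 of 14 were higher with oil (median 0.77) and 9 of 14 with 9527 (median 0.35). The 14 alveolar macrophage markers summed to 932 to 1213 CPM in saline, 1252 to 1353 CPM in oil and 1177 to 2043 CPM in 9527 males, and 11 and 10 of 14 were higher (medians 0.29 and 0.30). The 10 dendritic cell markers summed to 132 to 153 CPM in saline, 129 to 149 CPM in oil and 125 to 133 CPM in 9527 males, and 8 and 7 of 10 were higher (medians 0.21 and 0.36). The part of these cells in the results on Itgam, Selplg and Itgax was not tested.

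**Figure D3:**
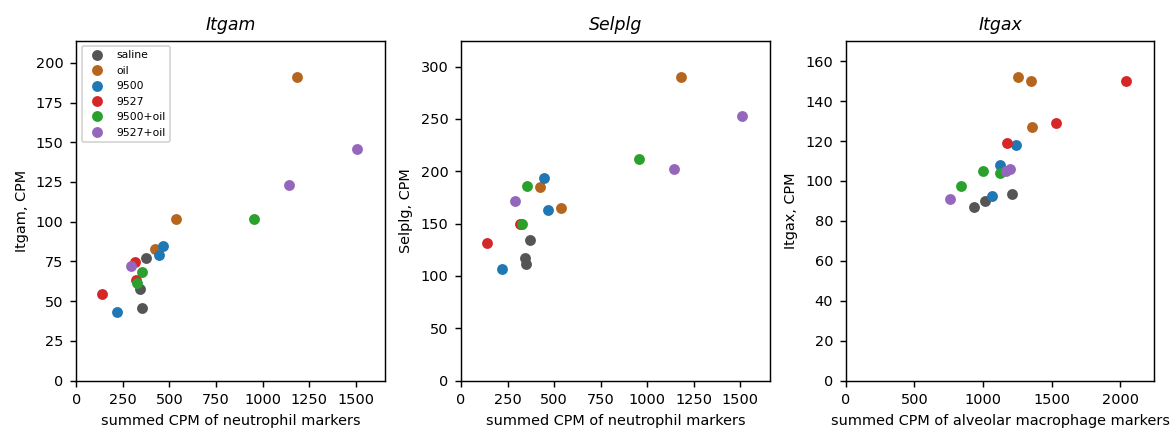
Itgam and Selplg against the summed CPM of 15 neutrophil markers, and Itgax against that of 14 alveolar macrophage markers, with 1 point a male mouse coloured by treatment. The 3 mice highest in Itgam (123, 146 and 191 CPM) have neutrophil sums of 1142 to 1506 CPM, and the oil mice lie above the saline mice in Itgax at alveolar macrophage sums of 1252 to 1353 CPM.

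Markers of the vessel wall were lower over the same comparisons. Of 12 endothelial markers 0 were higher with oil (median log2 fold change -0.20) and 0 with 9527 (median -0.39), and their sum was 6315 to 7120 CPM in saline, 5930 to 6293 CPM in oil and 5281 to 5434 CPM in 9527 males. The 9 platelet and megakaryocyte markers summed to 55.3 to 62.6 CPM in saline, 39.7 to 53.6 CPM in oil and 25.4 to 36.6 CPM in 9527 males, with 1 and 0 of 8 tested markers higher. Selp is stored by both cell types, and its 3 oil values were above saline where both marker sums were below. The part of these cells in the Selp values was not tested.

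Other genes of the adhesion cascade were read from lists by step. For integrin activation and anchoring inside leukocytes, 17 of 22 genes were higher with oil in males, 10 at an unadjusted p under 0.05, against 47.1% and 5.75% of all genes, with a median log2 fold change of 0.33. Apbb1ip (the adaptor RIAM, 0.69, SE 0.16), Fermt3 (kindlin-3, 0.46, SE 0.11) and Fgr (a Src-family kinase of myeloid cells, 0.85, SE 0.22) had the smallest p of that list, with edgeR adjusted p of 0.315, 0.319 and 0.319. For the other rolling genes 10 of 18 were higher (median 0.05), for the other chains and ligands of firm adhesion 6 of 17 (median -0.05), for junction molecules 1 of 15 (median -0.11) and for endothelial activation 5 of 15 (median -0.08). With 9527 the same lists gave 16 of 22 (median 0.06), 10 of 18 (0.03), 9 of 17 (0.03), 2 of 15 (-0.23) and 5 of 16 (-0.09).

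The one gene of these 5 lists called in a male comparison was Fn1, fibronectin, a matrix ligand of integrins that is also among the monocyte markers, with a log2 fold change of 0.73 (SE 0.10, edgeR adjusted p = 0.0468) with 9527. Itga4, the alpha chain that binds VCAM-1, had a mean of 111 ± 36 CPM (SD, n = 3) in saline and 164 ± 10.2 CPM in oil males, where the lowest oil mouse (156 CPM) was above the highest saline mouse (149 CPM). Icam2, a constitutive endothelial ligand, had 149 ± 19, 134 ± 11.4 and 112 ± 15.1 CPM in saline, oil and 9527 males. Itgad, which shares sequence with Itgax, stayed between 0.16 and 1.32 CPM in male mice.

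Several of the 9 genes stood apart in the 4 female libraries with high mitochondrial counts. In these 4 Selplg measured 13.8 to 57 CPM against 89.2 to 169 in the other 14 females, Icam1 107 to 220 against 350 to 510, Itgax 35.2 to 50.9 against 78.4 to 173, and Itgal 20.6 to 68.1 against 71.1 to 132 CPM. Vcam1 lay at 142 to 254 against 76.2 to 153 CPM, at the other end and with a slight overlap. Itgb2, Itgam, Selp and Sele also overlapped between both sets of libraries. The GC content of the longest transcript was 40.1% for Vcam1, 47.5% for Sele, 48.9% for Itgam, 49.8% for Selplg, 51.0% for Selp, 51.6% for Itgax, 53.1% for Itgb2, 53.2% for Itgal and 55.4% for Icam1, and its part in these differences was not tested.

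**Figure D4:**
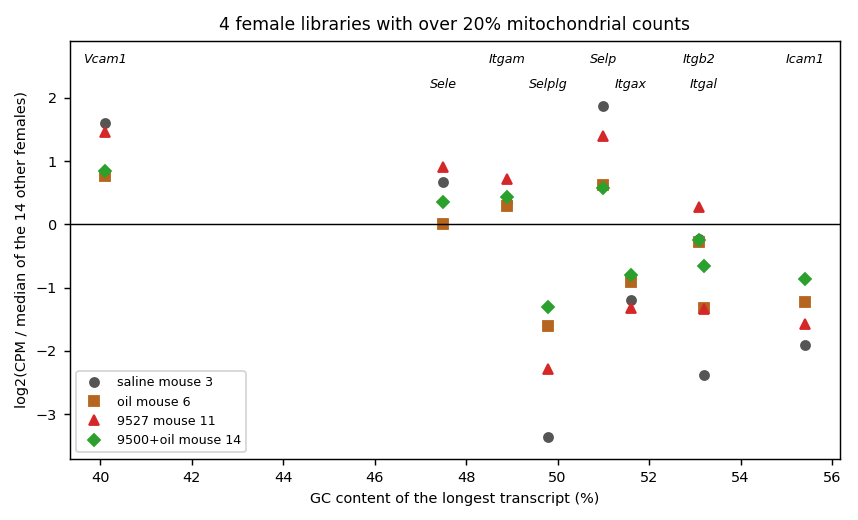
Log2 ratio of the CPM in each of 4 female libraries to the median of the other 14 females, against the GC content of each gene's longest transcript. Vcam1 (40.1% GC) lies above 0 and Icam1 (55.4% GC) below 0 in all 4 libraries, with Selplg (49.8% GC) lowest in saline mouse 3.

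No member was called in any female comparison with saline, with or without these libraries, where 0% of all genes were called in each of the 5 with all libraries, and without the 4 libraries 0.0132% with 9527+oil and 0% in the other 4. With all libraries, 0 of 9 had an unadjusted p under 0.05 in each, where the share of all genes was 0.108% with oil, 0.364% with 9500, 0.267% with 9527, 0.155% with 9500+oil and 1.1% with 9527+oil. The smallest edgeR adjusted p was 0.914. DESeq2 called 0 of the 9 in these comparisons, and its share of all genes is not given here. Without the 4 libraries the smallest edgeR adjusted p against saline was 0.325, with 9527+oil. The test over the 6 groups called none of the 9, where 0.0129% of genes were called. Without the 4 libraries, the 2 remaining 9527 females had 173 and 110 CPM of Itgax against 88.3 and 93.9 CPM in the 2 saline females (log2 fold change 0.65, SE 0.24, edgeR adjusted p = 0.968). Icam1 and Itgb2 were also wholly above saline there, 3 of 9 against 16.5% of all genes. Vcam1 was wholly below (84.4 and 76.2 CPM against 116 and 95.9 CPM), 1 of 9 against 16.4%. With all libraries only Itgb2 was wholly above saline, where 428 of 15004 genes were, and the other 8 members overlapped. Without the 4 libraries, the alveolar macrophage markers summed to 1671 and 2480 CPM in 9527 females and 942 and 1034 CPM in saline females.

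Without the 4 libraries, the 2 oil females lay wholly above saline for 0 of 9 members, against 11.6% of all genes. They had 82 and 88.2 CPM of Itgax, 90.4 and 90.5 CPM of Selplg (136 and 105 in saline), 49.9 and 36.3 CPM of Itgam (49.4 and 42.4 in saline) and 149 and 117 CPM of Itgb2 (130 and 136 in saline). For Sele, Selplg, Vcam1 and Itgax both oil mice were below both saline mice, 4 of 9 against 11.1% of all genes. With all libraries all 9 members overlapped between oil and saline, where 152 of 14837 genes lay wholly below. Without the 4 libraries, the neutrophil markers of the 2 oil females summed to 192 and 219 CPM against 197 and 259 CPM in saline. Selplg measured 169, 149 and 152 CPM in the 9500 females and 141, 156 and 141 CPM in the 9527+oil females, all above the saline values. With 9500 it was the one member wholly above saline, 1 of 9 against 7.6% of all genes. Itgal measured 131, 132 and 111 CPM with 9527+oil, also above the 109 and 95.9 CPM of saline, so that 2 of 9 lay wholly above against 15% of all genes. Vcam1 (79.4 to 81 CPM), Itgb2 (117 to 127 CPM) and Itgax (78.4 to 81.8 CPM) lay wholly below saline there, 3 of 9 against 16.2%, and Vcam1 did so with all libraries too. Of the 9500+oil females, Itgb2 (126 and 111 CPM against 130 and 136 CPM) lay wholly below saline, 1 of 9 against 12.6% of all genes. With all libraries all 9 members overlapped between 9500+oil and saline, where 109 of 14792 genes lay wholly below.

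**Figure D5:**
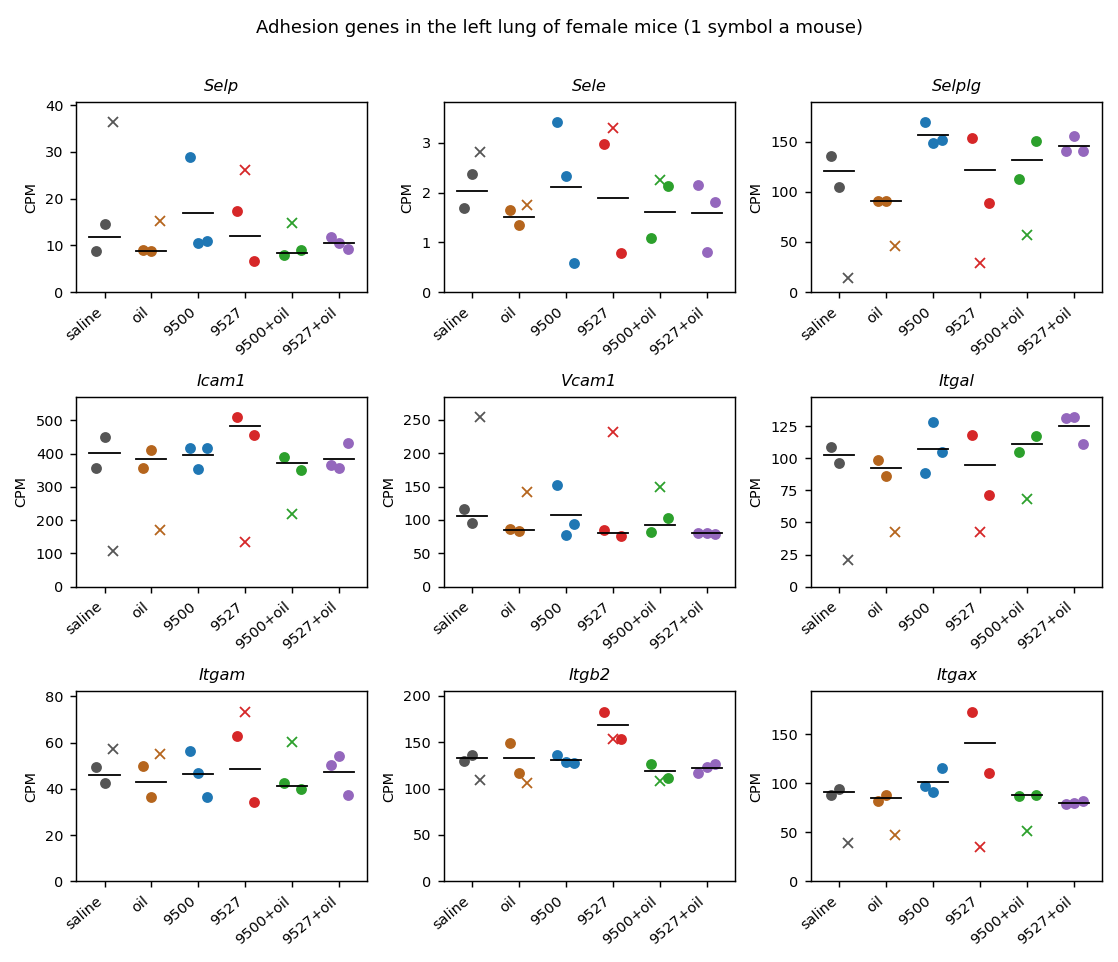
CPM of each of the 9 genes by treatment in female mice, with 1 symbol a mouse, crosses for the 4 libraries with over 20% mitochondrial counts and a bar at the mean of the other mice. The crosses lie below all circles for Selplg, Icam1, Itgax and Itgal, and the 9527 circles are the highest for Itgb2 (154 and 183 CPM).

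A sex by treatment term tested whether males and females differed. For oil the estimate, the log2 fold change of males minus that of females, was 1.55 for Selp (SE 0.66), 1.14 for Itgam (SE 0.47), 0.63 for Itgb2 (SE 0.28) and 0.68 for Itgax (SE 0.46), each with an edgeR adjusted p of 1. At an unadjusted p under 0.05, 3 of 9 were higher in males (Selp, Itgam and Itgb2) against 1.07% of all genes. Without the 4 libraries the estimates were 1.09 for Selp, 1.15 for Itgam, 0.62 for Itgb2 and 0.77 for Itgax (SE 0.16), all 9 were above 0, and the lowest adjusted p was 0.762. For 9527+oil 3 of 9 (Selp, Vcam1 and Itgam) were higher in males at an unadjusted p under 0.05 against 2.13% of all genes, with a lowest adjusted p of 0.948. For 9527 the interaction for Itgax was 0.03 (SE 0.68), and -0.09 (SE 0.25) without the 4 libraries.

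Over both sexes, with sex as a covariate, no member was called for any treatment, where 0.0326% of genes were called with 9527 and 0% with each of the others. Itgax had a log2 fold change of 0.54 with 9527 (SE 0.33, edgeR adjusted p = 1). Without the 4 libraries this was 0.59 (SE 0.12, edgeR adjusted p = 0.0265, with 2.13% of genes called), where 5 treated mice of both sexes (110 to 173 CPM) lay above all 5 saline mice (86.9 to 93.9 CPM). Itgb2 then had 0.31 (SE 0.10, edgeR adjusted p = 0.152).

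The genes whose levels followed each member most closely in both tables were found among 12958 genes, with likeness taken as the lower Pearson's r of 14 females and 18 males. Itgax was followed by F7, coagulation factor VII (r 0.86 and 0.85 in females and males). Itgam was followed by Ptpn6, the phosphatase SHP-1 (0.87 and 0.89), and Ifi204 (0.84 and 0.88). Itgb2 was followed by Nckap1l, a blood-cell subunit of the WAVE complex (0.89 and 0.91), and Ctss, cathepsin S (0.84 and 0.83). Selplg went with Nfam1 (0.88 and 0.94) and Was (0.92 and 0.87), and Itgal with Tnfrsf1b (0.90 and 0.86) and Akna (0.92 and 0.85). The nearest genes of Icam1 were Prkcsh (0.89 and 0.88) and Ncaph2 (0.92 and 0.84), those of Vcam1 Ifnar2 (0.77 and 0.75) and Eif4g3 (0.78 and 0.74). Selp had Cp (0.77 and 0.77) and P2ry6 (0.87 and 0.75), and Sele had Egln3 (0.67 and 0.81) and Mx1 (0.77 and 0.63). These are the best of many genes over few mice and carry no test.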

How the data were processed

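Left lungs of 36 mice were sequenced (Illumina TruSeq Stranded mRNA). The authors estimated transcript counts with Salmon against GRCm38 cDNA (version not given in the sources used here) and combined them with tximport. The deposited tables hold these expected counts per gene symbol, and they were already whole numbers, so rounding changed nothing. Rows that share a name (4 for each sex) were left out, and 24 rows named as dates were kept. Libraries of a table differed from each other by at least 11 in chi-square per gene, so none was counted as a repeat.

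Genes were tested with the edgeR 4.0.16 quasi-likelihood F-test in R 4.3.3 after TMM scaling and filterByExpr, with Benjamini-Hochberg adjustment over all genes tested and a threshold of 0.05. Only mice of the compared groups entered a fit, with sex as a covariate over both sexes. An SE is the log2 fold change divided by the square root of F. CPM use effective library sizes. Correlations use log2 CPM with a prior count of 2. Positions, lengths and GC content come from GENCODE M21. The scripts were tested on simulated data.

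Alternatives were DESeq2 1.42.0, other scalings and filters, mitochondrial genes left out, offsets for GC content and length, one fit of all groups, leaving out the sex term, leaving out the 4 libraries, and leaving out single mice (216 fits). All groups in one fit without the 4 libraries was added after seeing the data. Genes named are the 9 members, the 2 genes most like each (mean of at least 1 log2 CPM in both tables), list genes called, up to 3 list genes of smallest p and the partners Itga4, Icam2, Pecam1 and Itgad. Some genes that this rule names are not reported here. Members, rules and lists were chosen with earlier results of these data known. The lists cover 5 steps of adhesion and 12 cell types. With 3 mice a group, the spread between mice limits precision, and for Sele low counts do so too.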

Additional observations from a re-analysis of the deposited data

How the results depend on the processing

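Counts of called members changed with DESeq2, with all groups in one fit, without the 4 libraries and with single mice left out. With DESeq2 the count was 3 for oil, 1 for 9527, 1 for 9500+oil and 1 for 9527+oil in males, against 0 with edgeR, and 2 (Itgax and Selplg, with 3.94% of all genes called) for any difference among the male groups, against 1. All groups in one fit gave 1 for 9527 in males. Leaving out the 4 libraries with over 20% mitochondrial counts gave 1 for 9527 over both sexes, as did all groups in one fit without them (with 2.22% of all genes called). With each mouse left out the count ranged from 0 to 1 for 9527+oil in males and for any difference among the male groups, and kept its value in all other comparisons. The 4 fits that still called Itgax among the male groups called 0.197 to 0.983% of all genes. Itgax stayed called for any difference among the male groups under the 7 other settings (edgeR adjusted p up to 0.0466). Of 2385 fold changes under an alternative, 216 changed sign, of which 107 were female, 23 male and 86 over both sexes, none with an unadjusted p under 0.05 in either fit. Low counts limit Sele. The causes were not tested. No paired analysis was possible because treated and saline mice of a table share no mouse number, and the males and females that share numbers are different animals.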

Other observations

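The remaining marker lists were read in the same male comparisons. With oil, 8 of 12 tested T cell markers were higher (median log2 fold change 0.11), 8 of 10 B cell markers (0.27) and 6 of 9 NK cell markers (0.11), with 0 of 8 mesothelial markers (-0.23), 3 of 9 alveolar type 1 cell markers (-0.16) and 5 of 10 other lung epithelial markers (0.04). With Corexit 9527 the counts were 2 of 12 T cell (-0.07), 5 of 10 B cell (-0.04), 3 of 9 NK cell (-0.06), 3 of 8 mesothelial (-0.48), 5 of 9 alveolar type 1 (0.09) and 7 of 10 other epithelial markers (0.03). Upk3b, a uroplakin gene of the mesothelium, was the one gene of these 6 lists called for any difference among the male groups (edgeR adjusted p = 0.045).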
